A study of Mus musculus with 6 samples.

Results

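The genes described here are the 75 of 17778 listed genes that were higher in the colon of every obesity-prone (OP) mouse than in every obesity-resistant (OR) mouse. A gene was taken where the lowest OP value lay above the highest OR value, the mean of the OP mice was at least 1 FPKM (fragments per kilobase of transcript, scaled to the mapped fragments of the library) and at least 1.3 times the mean of the OR mice; *Vegfa* and *Alpi* were left out. The genes were thus chosen by the measured FPKM of these 6 mice, so that the separation of the groups is a condition of entry, and all OP and OR values of the 75 genes are given as a description with no test. The study fed wild-type male C57BL/6J mice a high-fat diet and named those that gained the most weight OP and those that gained the least OR. Colon RNA of 3 OP and 3 OR adult mice was sequenced at the end of the feeding, each mouse as 1 library, and no mouse on a normal diet was part of the sequenced set. The groups were therefore formed by weight gain, share strain, sex, genotype, diet and tissue, and differ by no assigned treatment. All 20 genes listed as markers of surface colonocytes were detected in the tissue.

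The epithelium of the colon is a single layer of absorptive colonocytes and mucus-secreting goblet cells that is renewed from the crypts and rests on a stroma of fibroblasts, vessels, muscle and immune cells. Its cells carry sensors of microbial products, signal to lymphocytes through surface molecules of the butyrophilin family, and burn fatty acids and sugars supplied by the lumen and the blood. Organised lymphoid follicles, rich in B cells, sit within the wall at scattered sites.

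The set was small beside its opposite. Its share of the listed genes was 0.422%, whereas the same rule turned round, with every OP mouse below every OR mouse, held 591 genes, or 3.32%. Among the 13520 genes with at least 0.5 FPKM in at least 3 mice, every OP mouse was above every OR mouse in 1.63% and below in 6.81%. Both shares are the background for the counts of separated genes in the lists and families below. In those counts the rule itself placed the members, and few genes stand beside them. Tested over all these genes by limma-trend on log2(FPKM + 1), 0 genes passed a q-value of 0.2 as higher in OP mice (0%), and 68 genes passed an unadjusted p of 0.05 in that direction (0.503%), against 477 in the other (3.53%). The paper used another method, DESeq2, at that q-value and reported genes in both directions, more of them lower in OP mice. The members among the 68 numbered 41, a count that the choice of members fixes in part and from which nothing is read; 73 of the 75 members were among the genes tested, and *Fcer2a* and *Cr2* were too low in most mice. The colon fibroblast list of 22 genes moved with the groups in the other direction, with a summed level of 418 to 615 FPKM in OP mice and 660 to 1030 FPKM in OR mice and a median log2 fold change of -0.66. The 14 blood endothelial genes summed to 24.0 to 41.9 FPKM in OP mice and 46.0 to 80.2 FPKM in OR mice. FPKM are shares of 1 library, and the part of the lower stromal share in the values of the 75 genes was not tested. In such tissue RNA, fewer cells of a type and less RNA per cell cannot be told apart.

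Most members differed modestly. The ratio of the OP mean to the OR mean had a median of 1.43 and ran from 1.31 to 15.26; it was at least 2 in 10 genes, between 1.5 and 2 in 23 and under 1.5 in 42. The gap between the groups, given as the lowest OP mouse over the highest OR mouse, was under 1.1 in 40 members and at least 1.3 in 6. Those 6 were *Gm20498* (1.80), *H4c8* (1.43), *Serp2* (1.38), *Rhov* (1.37), *Cyp2d40* (1.33) and *H1f2* (1.3). The mean level in OP mice was between 1 and 2 FPKM in 14 members, between 2 and 10 in 18, between 10 and 100 in 34 and at least 100 in 9. Together the members took 0.604%, 0.546% and 0.510% of the summed FPKM of OP mice 1, 2 and 3 and 0.394%, 0.401% and 0.329% of OR mice 1, 2 and 3. When the mice were scaled by the median ratio of their genes to the mean mouse (median-of-ratios scaling), OP mouse 1 had a factor of 0.803 against 0.983 to 1.106 in the other mice, and over all genes tested the median log2 ratio moved from -0.10 to 0.01. Under this scaling 174 genes met the rule, 56 of the 75 members among them, and 455 met its reverse. Members that no longer met it included *Pkm*, *Jun*, *Plin2*, *Acad11*, *Dhrs11* and *Cr2*.

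**Figure D1:**
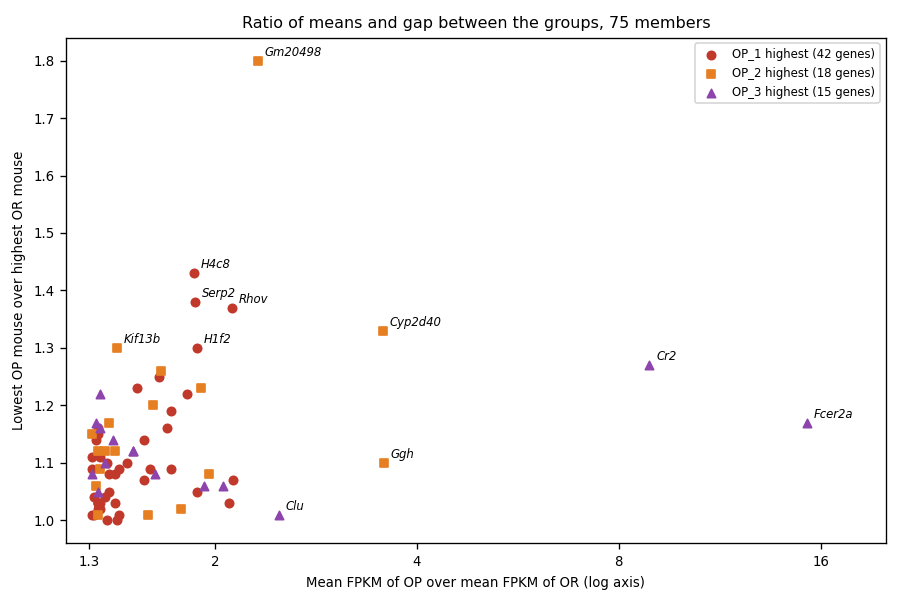
Ratio of the mean FPKM of the 3 OP mice to that of the 3 OR mice (x, log axis) against the lowest OP mouse divided by the highest OR mouse (y) for the 75 members, coloured by the OP mouse with the highest value. Most genes crowd under a ratio of 2 and a gap of 1.2, *Gm20498* has the widest gap (1.80), and *Fcer2a* and *Cr2*, highest in OP mouse 3, have the largest ratios.

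The members did not draw evenly on the OP mice. OP mouse 1 was the highest of its group in 42 members (56.0%), although it was the highest in 14.7% of all genes tested and the lowest in 62.4%. OP mouse 2 led in 18 members and OP mouse 3 in 15. Among the OR mice, OR mouse 3 was the lowest in 45 members (60.0%; 26.4% of all genes tested) and OR mouse 2 the highest in 40 (53.3%; 22.1% of all genes tested). In 27 members OP mouse 1 and OR mouse 2 were both the highest of their groups. The same count over all genes tested was not made. Over those genes the deviations of these mice from their group means correlated at 0.54, the highest value for an OP and an OR mouse. In the surface colonocyte list of 20 genes, OP mouse 1 was the highest OP mouse in 13 and OR mouse 2 the highest OR mouse in 13. The 20 genes summed to 44086 FPKM in OP mouse 1 and 38480 FPKM in OR mouse 2, and to between 21533 and 25205 FPKM in the other 4 mice, with none of the 20 at 0 in all mice. *Car1*, a carbonic anhydrase of surface cells, set much of this, and without it the sum was 29502 FPKM in OP mouse 1, 24151 FPKM in OP mouse 2, 22757 FPKM in OR mouse 2 and between 15195 and 19215 FPKM in the other 3 mice. The part of the surface epithelium in the order of the mice within the groups was not tested. In 8 members the highest OP mouse was more than 2 times the second, which was OP mouse 2 in 4 and OP mouse 3 in 4. Without that mouse 5 of the 8 had a ratio of at least 1.3, and *Clu*, *Gpr137b* and *Sh3d21* did not. This count leaves aside the level limit of 1 FPKM. Among the 5, the other OP mice were below 1 FPKM in *Fcer2a* and *Cr2*, and at 1.07 and 0.83 FPKM in *Gsdma*. Over all 75, without its highest OP mouse, each of 37 members had a ratio of at least 1.3. The rule already sets the remaining OP mice above every OR mouse, so these counts describe the members and are no test.

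**Figure D2:**
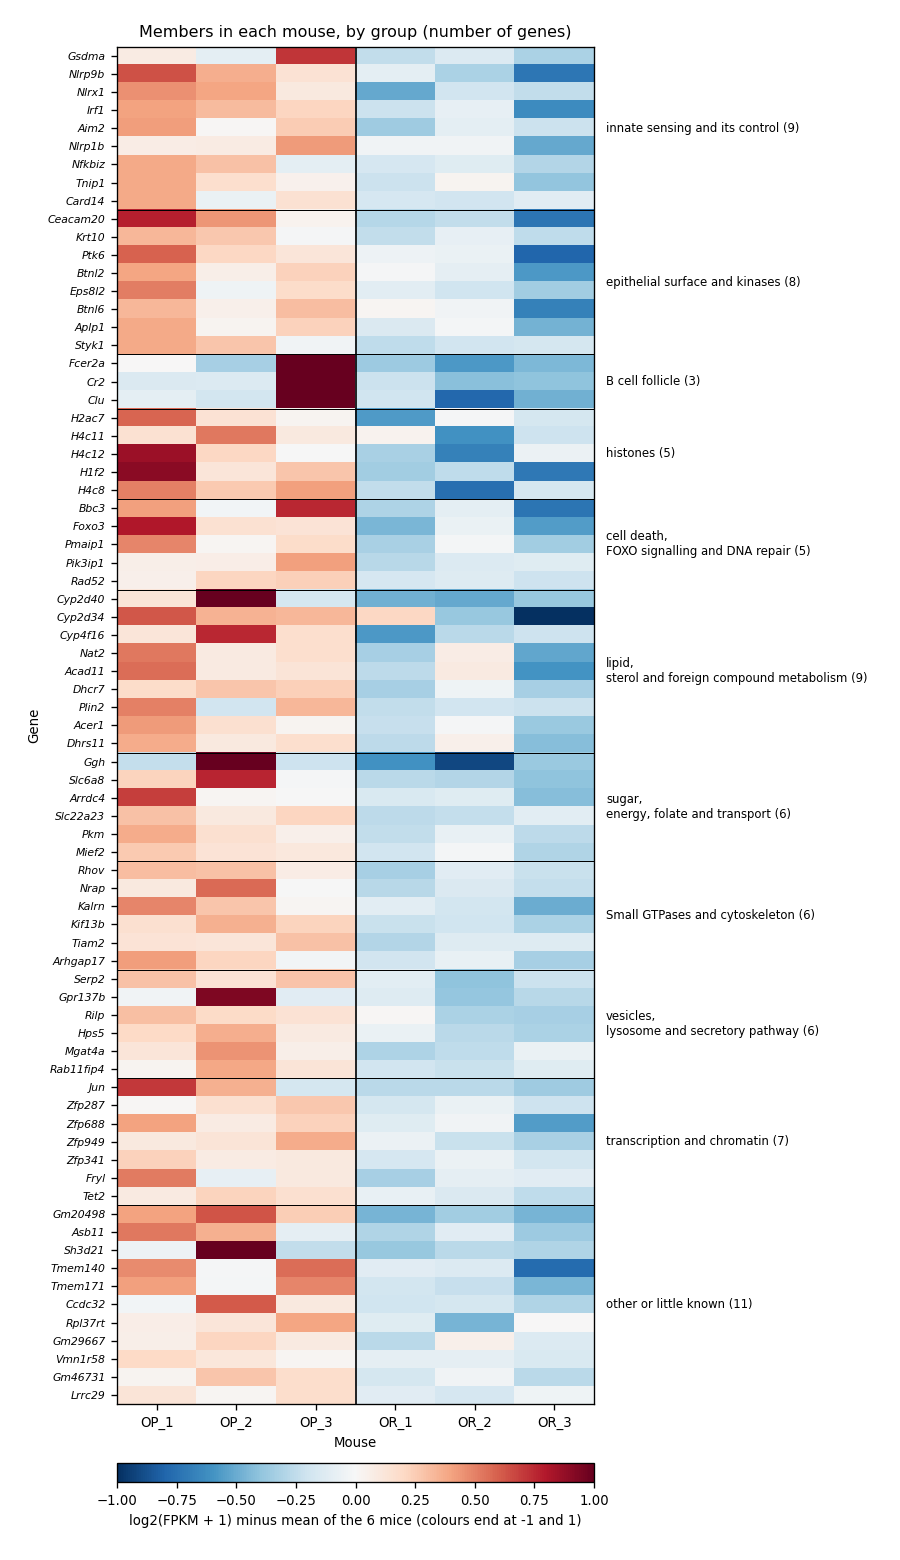
Level of each of the 75 members in the 6 mice as log2(FPKM + 1) minus the mean of the 6 mice, ordered by group of function, with the number of genes in brackets; red is above and blue below that mean. *Fcer2a* and *Cr2* are darkest in OP mouse 3, and so is *Clu*, which was placed with them after its values were seen. All 8 genes of the epithelial surface and kinases are highest in OP mouse 1, and many members are palest among OR mice in OR mouse 2.

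Genes that sense microbes inside the cell, or hold that response in check, numbered 9. *Nlrp9b* encodes a receptor of the NOD-like (NLR) family that the intestinal epithelium uses to detect viral RNA. Its level was 38.3, 31.6 and 27 FPKM in OP mice 1, 2 and 3 and 22.7, 19.3 and 14.3 FPKM in OR mice 1, 2 and 3, with means of 32.3 ± 5.70 and 18.7 ± 4.21 FPKM (SD, n = 3 each). The lowest OP mouse was at 1.19 times the highest OR mouse. *Nlrx1*, an NLR protein of mitochondria that dampens antiviral signalling, had 10.65, 10.2 and 8.08 FPKM in the OP mice and 4.97, 6.44 and 6.15 FPKM in the OR mice. The groups stood 1.25 times apart, and OP mouse 3 was the lowest of its group for both receptors. *Nlrp1b*, a sensor of pathogen proteases, was the third NLR member and had a ratio of 1.37. *Aim2*, which binds DNA in the cytosol, had a ratio of 1.39, and *Card14*, a scaffold of NF-kappaB activation in epithelia, one of 1.32. *Gsdma*, a pore-forming gasdermin best known from skin, was low at 1.07, 0.83 and 2.21 FPKM in OP mice and 0.65, 0.78 and 0.57 FPKM in OR mice. Only OP mouse 3 was well above the rest for *Gsdma*, and OP mouse 2 exceeded OR mouse 2 by a factor of 1.06.

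The transcription factor gene *Irf1*, which drives interferon and epithelial defence genes, was among the highest members. Its level was 140.3, 133 and 123 FPKM in OP mice and 91.1, 99.9 and 68.05 FPKM in OR mice, with means of 132 ± 8.60 and 86.3 ± 16.4 FPKM (SD, n = 3 each). The OP mice were within a narrow range, and the lowest of them was at 1.23 times the highest OR mouse. *Irf1* was the only 1 of 22 interferon response genes with every OP mouse above every OR mouse and the only one with a log2 fold change above 0, while the other 21 had a median of -0.61. The rule placed *Irf1* above, as were 1.63% of all genes tested. *Tnip1*, a ubiquitin-binding inhibitor of NF-kappaB, had a ratio of 1.32, and *Nfkbiz*, a nuclear regulator of NF-kappaB targets, one of 1.34.

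The relatives of these sensors did not share one pattern. Of the 9 other NLR genes tested, 7 had a log2 fold change above 0, 0 separated the groups, and the median was 0.12, where the median of all genes tested was -0.10. With 1.63% of all genes tested above in every OP mouse and 6.81% below, a count of 0 in so few genes says little. *Nlrp6*, the most abundant NLR gene, had means of 84.5 and 84.6 FPKM in OP and OR mice. The 7 genes tested that act with the sensors, among them *Casp1*, *Pycard* and *Gsdmd*, had a median of -0.02, or 0.12 after median-of-ratios scaling, and 0 of them had every OP mouse above every OR mouse. In 1 of the 7, *Il1b*, every OP mouse was below every OR mouse, at 0.72, 0.36 and 0.67 FPKM in OP mice and 1.65, 0.88 and 1.34 FPKM in OR mice. The 8 AIM2-like receptor genes tested beside *Aim2* had a median of -0.41, and 4 of them were below every OR mouse in every OP mouse. These 4 were *Ifi204*, *Ifi205*, *Ifi207* and *Ifi211*, named after their values were seen. *Ifi204* was at 0.7, 1.15 and 1.76 FPKM in OP mice and 3.48, 5.96 and 2.71 FPKM in OR mice.

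Epithelial surface molecules and kinases gave 8 members, and OP mouse 1 was the highest OP mouse in all 8. *Ceacam20* encodes an adhesion molecule of the brush border. Its level was 123, 97.7 and 73.6 FPKM in OP mice 1, 2 and 3 and 58.7, 60.4 and 42.9 FPKM in OR mice 1, 2 and 3, with means of 98.2 ± 24.9 and 54.0 ± 9.64 FPKM (SD, n = 3 each). It was the only 1 of the 20 surface colonocyte markers that separated the groups, although 17 of the other 19 had a log2 fold change above 0 and their median was 0.25. Separation of *Ceacam20* was set by the rule, and 1.63% of all genes tested were higher in every OP mouse. *Btnl6*, whose protein pairs with BTNL1 on enterocytes to support intraepithelial gamma-delta T cells, had 229, 189.5 and 227 FPKM in OP mice and 185, 178 and 114 FPKM in OR mice. OR mouse 3 was far below the other 5 mice, and the groups stood only 1.02 times apart. *Btnl2*, a butyrophilin-like restraint on T cells, had a ratio of 1.39. The 2 other Btnl genes tested had a median log2 fold change of 0.20, and *Btnl1*, the partner of *Btnl6*, had means of 96.1 and 93.7 FPKM.

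*Ptk6*, a kinase of differentiated gut epithelium, had 12.8, 9.57 and 8.98 FPKM in OP mice and 7.86, 7.75 and 4.3 FPKM in OR mice. The OR values were uneven, with OR mouse 3 well below the other 2. *Eps8l2*, which caps actin filaments in cell protrusions, was one of the most abundant members at 218, 148 and 174 FPKM in OP mice and 142, 133 and 119.7 FPKM in OR mice. The OP mice reached nearly down to the OR mice, with a gap of 1.04. *Styk1*, a receptor-like kinase, had a ratio of 1.35, and *Aplp1*, a relative of the amyloid precursor protein, one of 1.35. *Krt10* is a keratin of squamous epithelium and was low, at 2.09, 1.95 and 1.43 FPKM in OP mice and 1.06, 1.31 and 1.05 FPKM in OR mice. Of the 12 squamous markers in the files, *Krt10* was 1 of only 2 that passed the filter on low values. The 12 markers summed to 7.69 to 83.5 FPKM in OP mice and 3.83 to 37.1 FPKM in OR mice, and the part of squamous tissue in the level of *Krt10* was not tested.

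*Ceacam20* and *Nlrp9b* are direct neighbours on chromosome 7, with 0 protein-coding genes between them in the RefSeq order of the mouse genome. In OP mice the order of the 3 mice was the same for both genes, with OP mouse 1 the highest and OP mouse 3 the lowest, and OR mouse 3 was the lowest of all 6 mice for both. Such places were common in the set. OP mouse 1 was the highest OP mouse in 56.0% of members and OP mouse 3 the lowest in 44.0%, and OR mouse 3 was the lowest OR mouse in 60.0%. OR mice 1 and 2 were at 58.7 and 60.4 FPKM for *Ceacam20* but at 22.7 and 19.3 FPKM for *Nlrp9b*, so their order differed. The genes beyond *Ceacam20*, *Igsf23* and *Pvr*, overlapped between the groups. *Igsf23* was at 3.52, 11.6 and 3.35 FPKM in OP mice and 3.13, 3.05 and 5.77 FPKM in OR mice, and *Pvr* at 9.8, 9.9 and 8.25 FPKM in OP mice and 11.3, 8.89 and 16.9 FPKM in OR mice. On the far side of *Nlrp9b*, the vomeronasal receptor gene *Vmn1r91* was higher in every OP mouse but near 0, at 0.11, 0.29 and 0.1 FPKM in OP mice and 0, 0 and 0 FPKM in OR mice. Further pairs of members that are direct neighbours were *Cyp2d34* and *Cyp2d40* on chromosome 15 and *H4c11* and *H4c12* on chromosome 13.

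Histone genes gave 5 members, all of the replication-type clusters, which make the bulk histones of dividing cells from messages that mostly lack a poly(A) tail, whereas the libraries were enriched for mRNA. *H1f2*, a linker histone, was by far the most abundant of them. Its level was 208, 121 and 135 FPKM in OP mice 1, 2 and 3 and 87.1, 92.9 and 67.2 FPKM in OR mice 1, 2 and 3, with means of 155 ± 47.0 and 82.4 ± 13.5 FPKM (SD, n = 3 each). The lowest OP mouse was 1.3 times the highest OR mouse. *H4c8*, a gene for histone H4, had 9.17, 7.61 and 8.55 FPKM in OP mice and 5.05, 3.24 and 5.33 FPKM in OR mice. Its gap of 1.43 was the second widest of all members. *H4c12* had 7.91, 4.69 and 3.91 FPKM in OP mice and 2.94, 2.09 and 3.73 FPKM in OR mice, so that OP mouse 3 was barely above OR mouse 3. *H4c11* was low, at 1.34, 2.04 and 1.25 FPKM in OP mice and 1.16, 0.38 and 0.82 FPKM in OR mice. *H2ac7*, for a histone H2A, was the lowest, with 1.82, 1.08 and 0.92 FPKM in OP mice and 0.27, 0.86 and 0.66 FPKM in OR mice. In the last 3 genes the gap was 1.05, 1.08 and 1.07.

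Clustered histone genes for the same histone are similar in sequence, so the split of reads among them by the authors' quantification is uncertain. That split was not tested. The promoters of *H4c11* and *H4c12*, which are direct neighbours, are also alike. Their RefSeq promoter entries agree in 274 of 286 bases (95.8%) when aligned without gaps, with the annotated starts 14 bases apart. Most of these bases lie outside the message, so they do not measure the split of reads. The 120 bases before the start of 4 of the histone members follow, 5′ to 3′ on the strand of the gene, from RefSeq on build GRCm38.p6, with CCAAT and TATAAA on either strand in capitals. They lie at chr13:23738687-23738806 (+ strand), chr13:23574261-23574380 (+), chr13:21734914-21735033 (+) and chr13:21750554-21750673 (-).
H1f2: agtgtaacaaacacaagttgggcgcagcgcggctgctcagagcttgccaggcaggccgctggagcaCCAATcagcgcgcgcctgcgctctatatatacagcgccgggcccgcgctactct
H2ac7: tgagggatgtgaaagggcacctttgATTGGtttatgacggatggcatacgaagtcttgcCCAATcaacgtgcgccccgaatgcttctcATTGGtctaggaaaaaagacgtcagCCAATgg
H4c11: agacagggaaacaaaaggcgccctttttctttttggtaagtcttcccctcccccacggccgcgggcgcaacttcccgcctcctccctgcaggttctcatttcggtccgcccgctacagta
H4c12: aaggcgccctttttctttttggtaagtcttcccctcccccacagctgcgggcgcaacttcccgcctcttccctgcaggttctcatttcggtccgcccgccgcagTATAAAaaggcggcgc
The capitals mark 1 CCAAT in *H1f2*, several on both strands in *H2ac7* and the TATAAA of *H4c12*; the same TATAAA in *H4c11* begins 2 bases before its annotated start and so runs past the end of the stretch shown. The 120 bases before the start of *H4c8*, not printed here, held neither CCAAT nor TATAAA. Within 250 bases before to 50 after the start, TATAAA was present in 9 of the 58 members with an entry (15.5%) and in 806 of 10760 tested genes (7.49%), and CCAAT in 26 members (44.8%) and 38.6% of tested genes. The 9 with TATAAA include the clustered histone genes *H2ac7*, *H4c11* and *H4c12*, and the promoters of *H4c11* and *H4c12* are nearly the same. ACGTG, the core of the hypoxia element and part of the E-box CACGTG, was present in 10 members (17.2%) and 25.4% of tested genes, and CACGTG in 4 (6.90%) and 9.94%. TTTATNG, a motif of the CDX factors of gut epithelium, was present in 7 members (12.1%) and 6.98% of tested genes. Both strands were searched, and a match describes letters only.

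Of 62 clustered histone genes in the files, 33 were tested. Of the 28 that were not members, 21 had a log2 fold change above 0 and 7 below, and the median was 0.23. *H3c11* alone of the 28 had every OP mouse above every OR mouse, at 0.54, 0.95 and 0.73 FPKM in OP mice and 0.36, 0 and 0.29 FPKM in OR mice, and *H2ac20* alone had every OP mouse below, at 0, 0 and 0 FPKM in OP mice and 0.92, 0.61 and 1.88 FPKM in OR mice. The replacement histones, made throughout the cell cycle, had a median of -0.10 over 7 genes, and 0 of them had every OP mouse above every OR mouse, while *H2ax* had every OP mouse below. The cell cycle list of 22 genes had 22 log2 fold changes below 0 and a median of -0.43. *H2bc4*, the most abundant clustered histone gene, had means of 253 and 208 FPKM and overlapped between the groups.

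**Figure D3:**
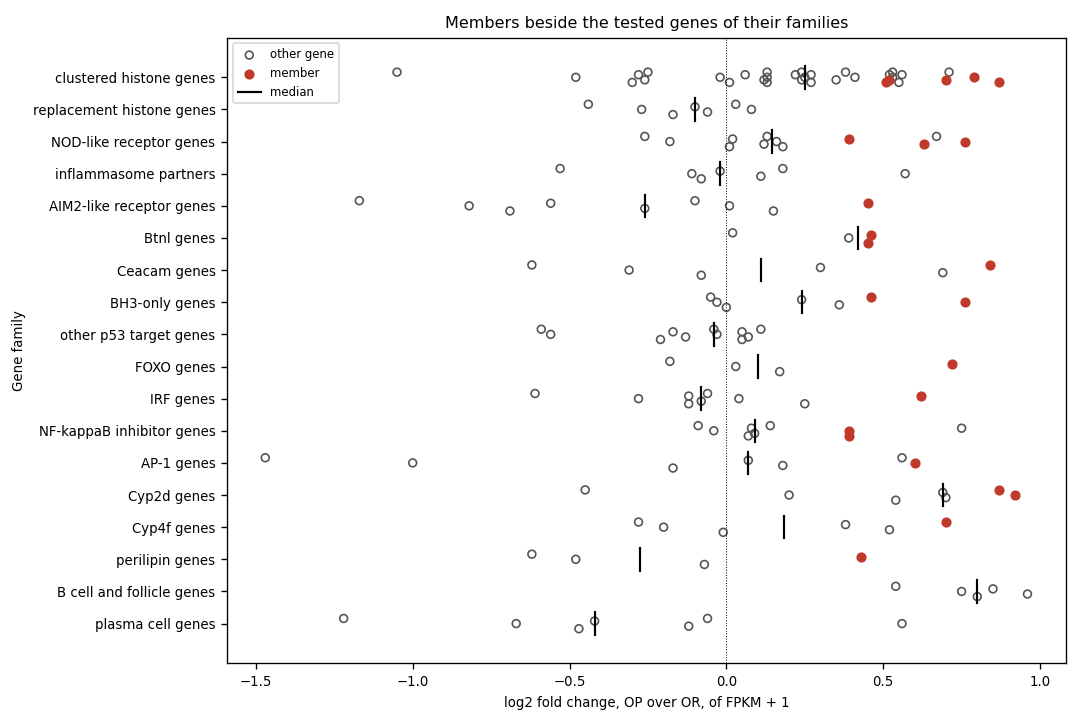
log2 fold change of OP over OR on the scale of FPKM + 1 for every tested gene of 18 families, with members in red, other genes as open circles and family medians as black bars. Members sit at the right edge of their families because they were chosen for it, and the medians include them. Among the open circles, 21 of 28 clustered histone genes lie right of 0 with *H2ac20* far to the left, and the inflammasome partners, p53 targets and IRF genes are spread around 0.

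Cell death, FOXO signalling and DNA repair gave 5 members. *Bbc3* encodes PUMA, a BH3-only protein that triggers apoptosis, and had 5.89, 4.08 and 7.74 FPKM in OP mice and 3.18, 3.85 and 2.13 FPKM in OR mice. Its groups stood 1.06 times apart, with OP mouse 2 close to OR mouse 2. *Pmaip1*, which encodes the BH3-only protein NOXA, had a ratio of 1.42. Both are known targets of p53. The 11 other p53 target genes tested, such as *Cdkn1a* and *Mdm2*, had a median log2 fold change of -0.04, or 0.10 after median-of-ratios scaling, and 0 of them separated the groups. As only 1.63% of all genes tested were higher in every OP mouse, that 0 says little. Of the 7 BH3-only genes tested, 2 separated the groups, the members themselves. *Foxo3*, a transcription factor restrained by insulin signalling that acts on *Bbc3*, had 55.1, 34.9 and 34.4 FPKM in OP mice and 22.5, 29.8 and 20.9 FPKM in OR mice, with means of 41.5 ± 11.8 and 24.4 ± 4.74 FPKM (SD, n = 3 each). OP mouse 1 was well above the other OP mice, which were at 1.16 times OR mouse 2 or more. *Foxo1* had means of 9.30 and 8.17 FPKM and *Foxo4* of 21.3 and 24.0 FPKM. *Pik3ip1*, an inhibitor of PI3 kinase, had a ratio of 1.35, and *Rad52*, a protein of recombination repair, one of 1.33.

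Lipid, sterol and foreign compound metabolism gave 9 members. *Cyp2d34*, a cytochrome P450 of the drug-metabolising CYP2D family, was at 212, 175 and 173 FPKM in OP mice and 159, 106 and 62.4 FPKM in OR mice. The OP mice were close together and the OR mice were spread more than 2-fold. Its neighbour *Cyp2d40* was low, at 1.69, 5.56 and 1.18 FPKM in OP mice and 0.76, 0.72 and 0.89 FPKM in OR mice, and OP mouse 2 set most of its ratio of 3.56. Without that mouse the ratio was 1.82. Of the 5 other Cyp2d genes tested, 4 had a log2 fold change above 0; *Cyp2d26* had means of 142 and 146 FPKM. The Cyp2d genes are similar in sequence, so that the split of reads among them is uncertain. *Cyp4f16*, of a family that hydroxylates fatty acids and eicosanoids, had 53.15, 83.2 and 55.15 FPKM in OP mice and 32.5, 40.4 and 42.3 FPKM in OR mice. The gap was 1.26, and of the 5 other Cyp4f genes tested 2 had a log2 fold change above 0.

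*Acad11*, an acyl-CoA dehydrogenase, had 69.4, 49.95 and 51.4 FPKM in OP mice and 39, 49.9 and 30.6 FPKM in OR mice. OP mouse 2 and OR mouse 2 were practically level, which makes *Acad11* the member with the narrowest gap. *Plin2*, the coat protein of lipid droplets, had 141, 86.5 and 125 FPKM in OP mice and 83.3, 86.2 and 85 FPKM in OR mice. Here too OP mouse 2 was level with the OR mice, and the other 2 OP mice were higher. Among 25 genes of fatty acid oxidation and PPAR targets *Plin2*, placed there by the rule, was the only one with every OP mouse above every OR mouse (1.63% of all genes tested). In 2 others, *Acaa2* and *Cd36*, every OP mouse was below every OR mouse. *Cd36* was at 5.94, 1.9 and 7.45 FPKM in OP mice and 14.37, 10.22 and 12.54 FPKM in OR mice. Of the 24 genes other than *Plin2*, 8 had a log2 fold change above 0, and the median was -0.07, or 0.07 after median-of-ratios scaling. *Dhcr7*, the enzyme of the last step of cholesterol synthesis, was tight within both groups, at 47.7, 51.2 and 49.8 FPKM in OP mice and 33.2, 40.7 and 33 FPKM in OR mice, with means of 49.6 ± 1.73 and 35.6 ± 4.40 FPKM (SD, n = 3 each). Of 23 cholesterol synthesis genes *Dhcr7* was the only one that separated the groups, which the rule had set. The other 22 had a median of -0.08, or 0.05 after median-of-ratios scaling. *Dhrs11*, a short-chain dehydrogenase of steroids, had 162, 134 and 141 FPKM in OP mice and 104, 129.7 and 92.7 FPKM in OR mice, with OR mouse 2 just under OP mouse 2. The remaining members were *Acer1*, an alkaline ceramidase, with a ratio of 1.34, and *Nat2*, an arylamine acetyltransferase, with a ratio of 1.44.

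Sugar, energy, folate and transport gave 6 members. *Pkm*, the pyruvate kinase of glycolysis, was the most abundant of all 75, at 663, 571 and 530.3 FPKM in OP mice and 430.2, 487 and 426 FPKM in OR mice. OP mouse 3, the lowest of its group, was at 1.09 times OR mouse 2, the highest of the other. Of the 27 other hypoxia and glycolysis genes 22 had a log2 fold change above 0 with a median of 0.21, and 2 separated the groups, *Tpi1* and *Pgam1*; the ratios of *Tpi1* and *Pgam1*, 1.16 and 1.17, were below the limit for entry. *Slc6a8*, the creatine transporter, had 80.4, 117 and 67.9 FPKM in OP mice and 56.6, 55.8 and 51.6 FPKM in OR mice. The OR mice were within a narrow range and every OP mouse was at least 1.2 times the highest of them. *Ggh*, a lysosomal hydrolase that removes glutamates from folate, had 23.3, 143 and 23.85 FPKM in OP mice and 17.8, 14.25 and 21.2 FPKM in OR mice. OP mouse 2 set most of its ratio of 3.57, which was 1.33 without it. *Arrdc4*, an alpha-arrestin that limits glucose uptake, had a ratio of 1.42, with *Txnip*, its better known relative, at means of 677 and 600 FPKM. *Slc22a23*, an orphan transporter, had a ratio of 1.34, and *Mief2*, a receptor of mitochondrial fission, one of 1.31.

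**Figure D4:**
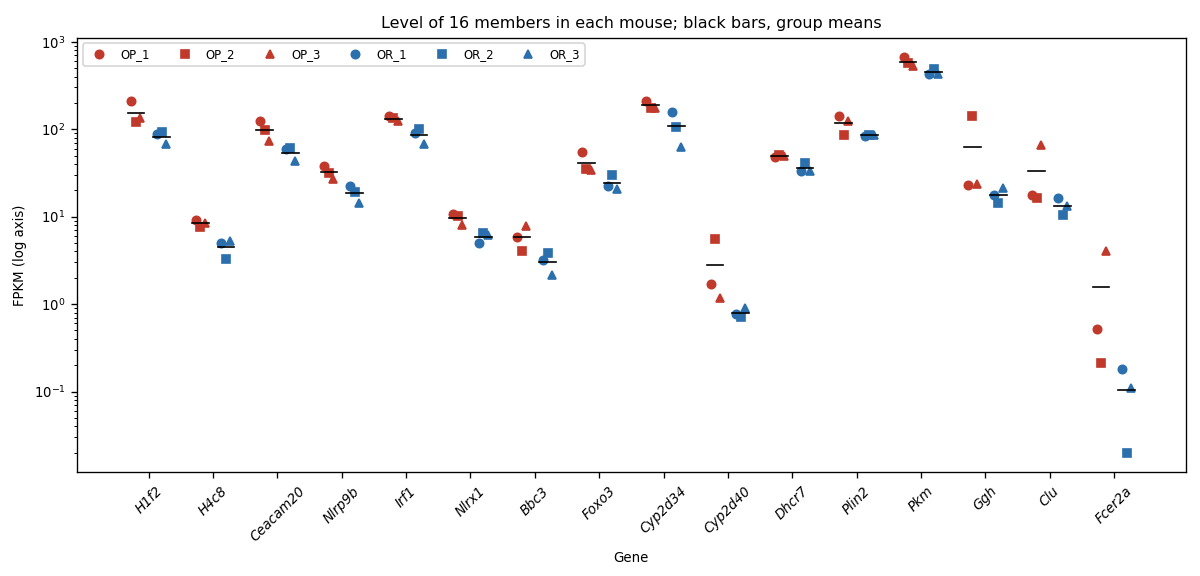
FPKM (log axis) of 16 members in each mouse, OP in red and OR in blue, with symbols for mice 1, 2 and 3 and black bars for the group means. *Dhcr7* shows tight groups, and *Ggh*, *Cyp2d40*, *Clu* and *Fcer2a* show 1 OP mouse far above the other 2.

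The B cell follicle gave the largest ratios. *Fcer2a* encodes CD23, the low-affinity receptor for IgE on B cells, and *Cr2* encodes complement receptor 2 of B cells and follicular dendritic cells. *Fcer2a* was at 0.52, 0.21 and 4 FPKM in OP mice 1, 2 and 3 and 0.18, 0.02 and 0.11 FPKM in OR mice 1, 2 and 3. *Cr2* was at 0.28, 0.29 and 2.54 FPKM in OP mice and 0.22, 0.06 and 0.07 FPKM in OR mice. OP mouse 3 set most of both ratios, 15.26 and 8.89, which were 3.53 and 2.44 without it, and the other 2 OP mice were below 1 FPKM. *Clu*, a secreted chaperone that follicular dendritic cells make among other cells, was placed with them after its values were seen, at 17.5, 16.5 and 66 FPKM in OP mice and 16.35, 10.5 and 13.2 FPKM in OR mice. Without OP mouse 3 its ratio was 1.27, and OP mouse 2 was 1.01 times OR mouse 1.

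Genes of B cells and follicles were highest in OP mouse 3 as a list. This list of 12 genes holds the members *Fcer2a* and *Cr2* beside others such as *Cd79a*, *Ms4a1* and *Cxcl13*. OP mouse 3 was the highest of the 6 mice in all 12, by 3.24 to 9.55 times the next mouse. Their summed level was 107 FPKM in OP mouse 3 and between 10.4 and 18.0 FPKM in the other 5 mice, and *Fcer2a* and *Cr2* were the 2 of 12 that separated the groups. *Cd79a*, part of the B cell receptor, was at 5.67, 3.05 and 39.8 FPKM in OP mice and 5.34, 3.51 and 4.2 FPKM in OR mice. Of 7 plasma cell genes, OP mouse 3 was the highest of the 6 mice in 2, *Mzb1* and *Irf4*, and OR mouse 3 in 3; the median log2 fold change of the 7 was -0.42. Whether follicle tissue in the piece taken from OP mouse 3 had a part in *Fcer2a*, *Cr2* and *Clu* was not tested.

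**Figure D5:**
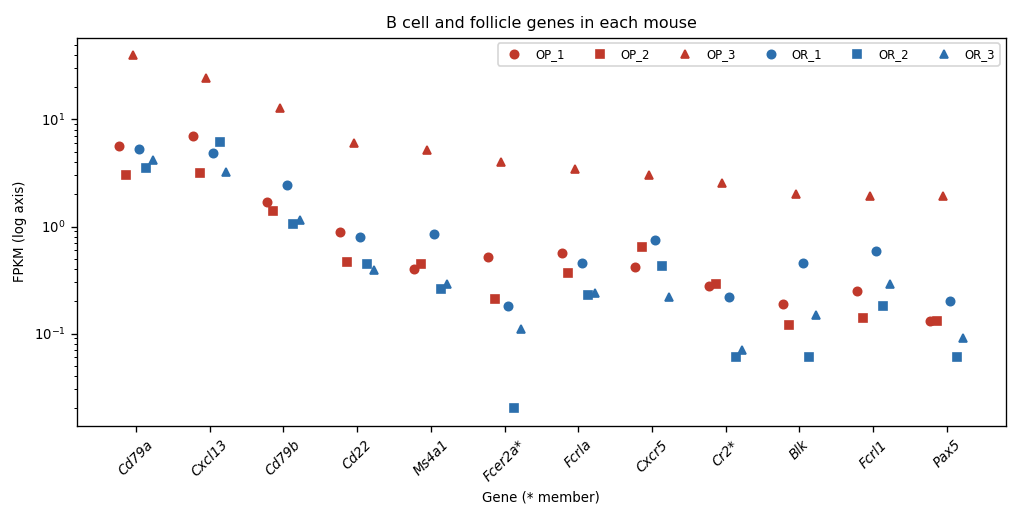
FPKM (log axis) of 12 B cell and follicle genes in each mouse, with the members marked by an asterisk; OP in red, OR in blue, symbols for mice 1, 2 and 3. The triangle of OP mouse 3 stands above the other 5 mice in every gene, and OP mice 1 and 2 mix with the OR mice in all but *Fcer2a* and *Cr2*.

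Small GTPases, their regulators and the cytoskeleton gave 6 members. *Rhov*, an atypical small GTPase, entered just above the level limit, at 1.13, 1.11 and 0.81 FPKM in OP mice and 0.37, 0.59 and 0.48 FPKM in OR mice. Despite the low level its groups stood 1.37 times apart. *Kif13b*, a kinesin that moves cargo along microtubules, had 24.7, 28.4 and 25.8 FPKM in OP mice and 18.7, 19 and 17.5 FPKM in OR mice. Both groups were tight, with means of 26.3 ± 1.91 and 18.4 ± 0.786 FPKM (SD, n = 3 each). *Nrap*, an actin-binding protein of muscle, was low at 1.15, 1.97 and 1 FPKM in OP mice and 0.65, 0.81 and 0.7 FPKM in OR mice, while the 15 smooth muscle markers all had a log2 fold change below 0. *Kalrn* and *Tiam2*, which activate Rac, had ratios of 1.48 and 1.35, and *Arhgap17*, which switches small GTPases off, one of 1.34.

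Vesicle traffic, lysosome and the secretory pathway gave 6 members. *Serp2*, a small protein of the endoplasmic reticulum, was at 1.62, 1.37 and 1.61 FPKM in OP mice and 0.99, 0.62 and 0.85 FPKM in OR mice. Its OP mice were close together and at 1.38 times the highest OR mouse or more. *Gpr137b*, a membrane protein of lysosomes, had a ratio of 1.59 that OP mouse 2 set, and a ratio of 1.16 without it. *Mgat4a*, which branches N-glycans, had a ratio of 1.35, *Hps5*, of the BLOC-2 complex for lysosome-related organelles, one of 1.37, and *Rilp*, a RAB7 effector, one of 1.38. *Rab11fip4*, an effector of recycling endosomes, had a ratio of 1.34. All 6 met the rule again after the scaling by median ratios.

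Transcription and chromatin gave 7 members. *Jun*, a subunit of the AP-1 factor, had 111, 86.6 and 59.6 FPKM in OP mice and 55.9, 55.65 and 52.5 FPKM in OR mice. The OR mice were nearly level and OP mouse 3 was at only 1.07 times the highest of them. Of 22 immediate early genes *Jun* was the only one with every OP mouse above every OR mouse, whereas 5 had every OP mouse below, namely *Fosb*, *Fosl1*, *Nr4a1*, *Nr4a3* and *Klf2*, and the median of the 21 without *Jun* was -0.28. Over all genes tested the shares were 1.63% above and 6.81% below. *Nr4a1* was at 2.58, 2.79 and 3.65 FPKM in OP mice and 8.41, 19.2 and 17.5 FPKM in OR mice. *Tet2*, which oxidises methylcytosine, had a ratio of 1.31, and *Fryl*, a large protein of the furry family, one of 1.31. Zinc finger genes gave *Zfp287* (1.51), *Zfp688* (1.44), *Zfp949* (1.41) and *Zfp341* (1.34), each with the ratio of means in brackets.

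The last 11 members have little known or unrelated functions. *Gm20498*, a predicted gene, had the widest gap of all 75, at 3.62, 4.42 and 3.15 FPKM in OP mice and 1.53, 1.75 and 1.54 FPKM in OR mice, with means of 3.73 ± 0.642 and 1.61 ± 0.124 FPKM (SD, n = 3 each). Its lowest OP mouse was 1.80 times its highest OR mouse. *Tmem171*, a membrane protein, was the third most abundant member, at 208, 154 and 219 FPKM in OP mice and 137, 133 and 114 FPKM in OR mice. *Tmem140*, another membrane protein, had 31.55, 22.25 and 33.6 FPKM in OP mice and 20.7, 20.3 and 12.75 FPKM in OR mice, with OR mouse 3 apart from the other OR mice. *Asb11*, a substrate adaptor of a ubiquitin ligase, had 1.93, 1.6 and 0.91 FPKM in OP mice and 0.65, 0.88 and 0.58 FPKM in OR mice, so that OP mouse 3 and OR mouse 2 nearly met. *Sh3d21*, a protein with SH3 domains, had 17.2, 43.7 and 14.9 FPKM in OP mice and 13.6, 14.7 and 14.4 FPKM in OR mice. OP mouse 2 alone stood out, and without it the ratio of *Sh3d21* was 1.13. The others were *Ccdc32* (1.42), which helps to build the AP-2 adaptor of endocytosis, *Lrrc29* (1.31), the vomeronasal receptor gene *Vmn1r58* (1.33), the ribosomal protein retrogene *Rpl37rt* (1.34), whose share of reads against its parent gene is uncertain, and the predicted genes *Gm29667* (1.34) and *Gm46731* (1.33), each with the ratio of means in brackets.

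Genes near the limits show how far entry turned on small differences. Just inside the ratio of 1.3 was *Tet2* with a ratio of 1.308, at 4.96, 5.54 and 5.26 FPKM in OP mice and 4.32, 4.05 and 3.68 FPKM in OR mice. *Fryl* had a ratio of 1.309, at 34.6, 22.5 and 25.7 FPKM in OP mice and 18.8, 22.4 and 22 FPKM in OR mice, and *Mief2* one of 1.310, at 7.92, 7.19 and 7.01 FPKM in OP mice and 5.51, 6.34 and 5.03 FPKM in OR mice. In *Fryl* OP mouse 2 was nearly level with OR mice 2 and 3, whereas the groups of *Tet2* and *Mief2* stood farther apart. Just outside was *LOC118568343* with a ratio of 1.295, at 3.13, 3.32 and 4.03 FPKM in OP mice and 2.79, 2.81 and 2.49 FPKM in OR mice. The kinase gene *Ptk2b* had a ratio of 1.293, at 34.75, 29.6 and 35.65 FPKM in OP mice and 28.6, 25.15 and 23.6 FPKM in OR mice. *Slc6a14*, an amino acid transporter, had one of 1.292, at 328, 335 and 317 FPKM in OP mice and 303, 219.6 and 236 FPKM in OR mice. A further 138 genes had every OP mouse above every OR mouse and a mean of at least 1 FPKM but a ratio under 1.3, and 80 met the ratio below 1 FPKM.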

How the data were processed

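Colon RNA of 3 OP and 3 OR mice was measured by RNA-seq. The deposited table gives FPKM, made by the authors, to 2 decimals for 17778 gene symbols and each mouse. According to the methods and labels, reads of strand-specific mRNA libraries passed SOAPnuke, Bowtie2 (mouse gene set, GRCm39) and RSEM, with versions that differ between the sources; the submitters' processing notes name HISAT2 2.0.4. Depth is unknown, so no counting error is given.

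Genes with at least 0.5 FPKM in at least 3 mice (13520) were tested on log2(FPKM + 1), a scale that understates changes of low genes, by limma-trend (limma 3.58.1, R 4.3.3), with Benjamini-Hochberg q-values and fold limits of 1.2 and 0.83; the fit was tested on simulated data. The labels number 3 samples per group, taken here as 3 mice, and p-values measure only the spread between these samples.

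The members and all gene lists were chosen with earlier results of these data known, and the function groups, families and motifs after the members' values were seen. Values in every mouse are given for the 25 largest ratios, the 15 highest OP means, the 10 widest gaps and members of the 44 lists of cell types and pathways, with 3 genes on either side of the ratio limit; *Ptk6* was added after its values were seen. Neighbours and promoters were matched by symbol to RefSeq; 58 members had a promoter entry, of another build (GRCm38.p6) than the authors'. NumPy 2.4.6 and pandas 2.3.3 were used. Alternatives were other scalings, pseudocounts, filters, limits and fits, and each mouse left out. In the group of B cell and follicle genes, 1 gene is not reported here.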

Additional observations from a re-analysis of the deposited data

How the results depend on the processing

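The number of genes that met the rule, 75, was 174 after median-of-ratios scaling, 122 at a ratio of 1.2 and 33 at a ratio of 1.5; with 1 mouse left out it ran from 95 without OR mouse 3 to 313 without OP mouse 2, fewer mice being easier to separate. Of the 75 members, 51 met the rule without OP mouse 1 and 72 without OR mouse 2, the lowest and highest such counts. As TPM 86 genes met it, 74 of them members. The 68 genes higher at an unadjusted p below 0.05 became 153 after median-of-ratios scaling, 133 without a filter and 146 with sample weights, and 24 to 181 with 1 mouse left out, lowest without OR mouse 3 and, beyond 1.5 times the main count, without OP mouse 2 or 3 or OR mouse 2. In the main limma fit and in each of the 14 alternative fits, 0 genes passed a q-value of 0.2 as higher in OP mice. The 3 genes lower at that level became 0 after median-of-ratios scaling, as TPM, at a pseudocount of 0.1, without a filter, at 1 FPKM in all mice and with the replicate block, 5 with sample weights and 0 to 1 with 1 mouse left out, where 1 came without OP mouse 2; the cause of these shifts was not tested. With the replicate block 66 genes were higher at an unadjusted p below 0.05. The replicate numbers belong to different mice, and deviations of same-numbered mice correlated at -0.14, -0.16 and 0.07 over genes (-0.46 to 0.54 for other pairs). The highest values were 0.54 for OP mouse 1 with OR mouse 2, 0.42 for OP mouse 3 with OR mouse 1 and 0.39 for OP mouse 2 with OR mouse 3. The samples were treated as not paired by number, and shared handling of other pairs was not tested.

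Over 496 recomputed fold changes of 36 members with values, 13 moved by at least 1 SD between mice, 9 of them at a pseudocount of 0.1. None fell below 0, which the choice of members largely fixes, and nothing is read from it. Of 352 recomputed list medians, 24 moved by at least 1 SD. The unknown depth and 3 mice per group limit the precision, above all for members near 1 FPKM.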
